A study of Mus musculus with 4 samples.

Results

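The 10 genes described here encode classical cadherins and T-cadherin. They are Cdh2 and Cdh4 of type I, Cdh8, Cdh9, Cdh10, Cdh11, Cdh12, Cdh18 and Cdh20 of type II, and Cdh13, which encodes T-cadherin. Peaks of catalytically engaged TOP2B were assigned to a gene when the summit lay in its GRCm38 span or within 10 kb of it. This gave 64 of the 35539 peaks in the deposited list, 59 inside the 10 spans and 5 in the flanking 10 kb. The list is a lenient one, with a smallest −log10 p of 2.00. A deposited q of 0.05 or less was held by 11 of the 64, against 23.4% of the list. The peaks came from cultured cortical neurons of wild-type Swiss-Webster mouse embryos at embryonic day 16. All 4 libraries, 2 from ChIP (chromatin immunoprecipitation) with a TOP2B antibody and 2 from input, were from cells given 50 µM etoposide for 30 min before collection. The labels list no culture without etoposide, and nothing in them says whether libraries came from separate cultures. Only 1 list pooled by the authors was analysed, so no value has a standard deviation, and the depth of the libraries is unknown. The list holds no expression values, so the labelled cell type could not be checked against marker genes.

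Classical cadherins are transmembrane proteins whose extracellular repeats bind calcium and join cadherins of a neighbouring cell. Their cytoplasmic tails bind β-catenin and p120-catenin family proteins, and α-catenin links that complex to actin. Type I and type II proteins differ in the residues that dock at the adhesive interface, and T-cadherin is held in the membrane by a lipid anchor and has no cytoplasmic tail. In the developing cortex, cadherins are known for sorting neurons into layers and areas and for roles at synapses. TOP2B, the type II topoisomerase of postmitotic neurons, cuts both strands of DNA and passes another duplex through the break, and etoposide holds the enzyme on the cut ends.

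The member promoters are shown because they give the transcript starts from which distances to nearby summits were measured. Summits were assigned to genes by span and not by these starts. A RefSeq table of GRCm38.p6 held promoters for 6 members, namely Cdh8, Cdh9, Cdh10, Cdh12, Cdh18 and Cdh20. Each window runs from 250 bases before a transcript start to 50 bases after it, on the gene's own strand. Cdh12, at chr15:21111202-21111501 on the plus strand, was the single promoter of the 6 with a summit within 1 kb of its start. Cdh18, at chr15:23036213-23036512 on the plus strand, belonged to the member with the peak of highest fold. Cdh9, at chr15:16728665-16728964 on the plus strand, belonged to the member with no summit inside its span. Capitals mark the letters CCAAT, searched on both strands.
Cdh12: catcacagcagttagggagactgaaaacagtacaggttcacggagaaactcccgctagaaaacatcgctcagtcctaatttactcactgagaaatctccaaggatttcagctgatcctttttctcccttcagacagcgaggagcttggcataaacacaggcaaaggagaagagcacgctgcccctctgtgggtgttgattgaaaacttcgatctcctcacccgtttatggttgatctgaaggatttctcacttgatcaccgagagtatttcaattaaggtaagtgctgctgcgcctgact
Cdh18: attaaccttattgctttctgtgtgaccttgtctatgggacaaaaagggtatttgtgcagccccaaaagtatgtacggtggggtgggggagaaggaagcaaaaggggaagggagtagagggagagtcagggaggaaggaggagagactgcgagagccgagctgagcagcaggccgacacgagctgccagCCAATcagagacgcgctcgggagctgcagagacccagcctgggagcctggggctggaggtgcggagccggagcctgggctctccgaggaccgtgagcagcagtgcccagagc
Cdh9: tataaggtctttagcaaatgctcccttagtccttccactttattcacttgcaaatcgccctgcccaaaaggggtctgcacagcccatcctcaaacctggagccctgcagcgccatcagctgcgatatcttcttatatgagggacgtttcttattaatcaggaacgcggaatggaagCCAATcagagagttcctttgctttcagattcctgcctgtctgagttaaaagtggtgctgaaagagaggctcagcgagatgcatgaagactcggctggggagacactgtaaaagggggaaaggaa

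CCAAT, the core of the motif bound by the factor NF-Y, was present in the promoters of Cdh8, Cdh9, Cdh18 and Cdh20, 4 of the 6. It was present in 38.5% of the 21045 promoter windows of protein-coding genes. In Cdh18 it ended 58 bases before the start and in Cdh9 70 bases before it, in the same orientation as the gene. In Cdh20 the letters were on both strands and overlapped. GGGCGG, the core of the Sp-family motif, was found in Cdh8 alone of the 6 and in 46.7% of all windows. Neither TATAAA nor the AP-1 motif TGANTCA was in any of the 6, against 12.7% and 7.04% of all windows. GC content was 37.7% in Cdh10, 46.7% in Cdh12, 48.7% in Cdh9, 50.7% in Cdh20, 60.3% in Cdh18 and 62.3% in Cdh8, and the median over all windows was 56.7%. A match of letters is a description of the window and not evidence of binding.

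The number of summits differed widely between members, from 22 at Cdh13, 13 at Cdh18 and 11 at Cdh4 to a single summit at Cdh9 and at Cdh10. The genes are long, from 128.6 kb for Cdh9 to 1184.9 kb for Cdh13, and length has to be taken into account. Together they held 1.22 summits per 100 kb of gene and flank (95% Poisson interval 0.941 to 1.56, counting error only). The value was 1.51 per 100 kb over the 1696 autosomal protein-coding genes at least as long as Cdh9 and 1.82 over all 20665. The interval of the members included the value of long genes. A summit in the span or its 10 kb flanks was found at 10 of 10 members, against 95.8% of genes of such length and 55.5% of all protein-coding genes. A summit in the span itself was found at 9 of 10 members, against 94.5% of genes of such length.

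**Figure D1:**
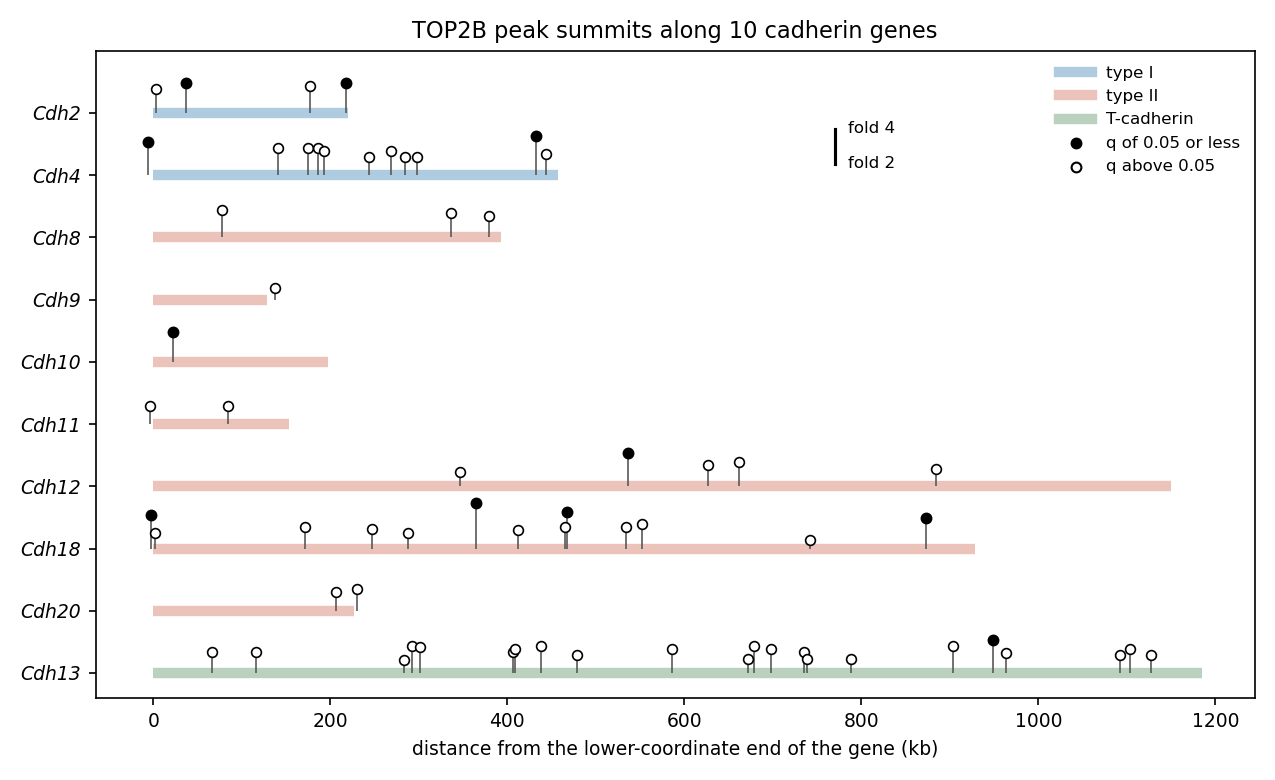
Peak summits along the 10 genes, with distance from the lower-coordinate end of each gene in kb on the x axis and 1 row per gene. Bars are gene spans coloured by class, stem height runs linearly with fold enrichment as the scale bar shows, and filled circles have a deposited q of 0.05 or less. Summits were spread along Cdh13 and Cdh18, and 8 of the 11 of Cdh4 lay between 141.4 and 298.2 kb, while Cdh12, nearly as long as Cdh13, held 5 against 22.

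The type I genes stood at the upper end of the density order. Cdh4, which encodes R-cadherin, known from the retina and brain, held 11 summits in 457.0 kb and its flanks on chromosome 2. That was 2.31 per 100 kb, the highest of the 10 members (95% Poisson interval 1.15 to 4.13). Its first 141.4 kb from the lower end held no summit, and 8 of its summits lay between 141.4 and 298.2 kb. Folds over control ran from 2.42 to 3.63 with a median of 2.77. The strongest, at 179874723, rested on 20 ChIP fragments over a control level of 4.78 and was 452 bp wide, the widest of the 64. Its deposited q was 0.00437. A peak at 179436782, 5641 bp below the lower end, had a fold of 3.29 and a q of 0.0208, and the other 9 summits of Cdh4 had a q above 0.05.

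Cdh2 encodes N-cadherin, the main classical cadherin of neural tissue. It held 4 summits in 220.4 kb on chromosome 18, or 1.66 per 100 kb (0.453 to 4.26). Their folds were 2.77, 3.08, 2.92 and 3.11 in order of position. The outermost summits lay 3104 bp and 2153 bp inside the lower and upper ends of the gene, and 139.4 kb without a summit separated the inner pair. The summits at 16626378 and 16807093 had a q of 0.0318 and 0.0390, so 2 of the 4 were at 0.05 or less.

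T-cadherin, the product of Cdh13, has been described as a receptor of adiponectin and low-density lipoprotein and as an inhibitor of axon growth. Cdh13 held the most summits of any member, 22 in 1184.9 kb on chromosome 8, all inside the span. The density was 1.83 per 100 kb (1.14 to 2.76). Folds ran from 2.10 to 3.24 with a median of 2.59, and rested on 13 to 19 fragments. The list median of 2.77 was reached or passed by 10 of the 22. A q of 0.05 or less was reached by 1 of the 22, at 119088868, with a fold of 3.24 and a q of 0.0173. The longest stretch of Cdh13 without a summit was 166.4 kb, 14.0% of the gene. Summits were thus spaced along most of its length, and 2 pairs lay within 5 kb of each other, 3012 bp and 3466 bp apart.

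Among type II genes, Cdh18 held nearly as many summits per length as the average long gene. Cdh18 is expressed mainly in the central nervous system, and its listed start is 487.6 kb inside the span. It held 13 summits in 928.6 kb on chromosome 15, or 1.37 per 100 kb (0.730 to 2.34). It had the peak of highest fold among the 64, at 22914076, with 22 fragments over a control level of 4.78. That fold was 3.98, above 99.4% of the list, and its q was 0.000497. The same position lies in Gm19840, a pseudogene that RefSeq places inside Cdh18, and this was the single summit of the 64 that another listed gene shared. A second peak of Cdh18, at 23016134, had a fold of 3.46 and lay 2102 bp from a peak of fold 2.59. The peak of lowest fold among the 64, 1.88 at 23290665, was also in Cdh18, where the control level was 6.46. Folds within this gene therefore spanned the range of the whole set, and 4 of its 13 summits had a q of 0.05 or less.

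Cdh12 was the member with fewest summits per length. This type II gene of the brain held 5 summits in 1149.5 kb on chromosome 15, or 0.428 per 100 kb (0.139 to 0.998). Their folds were 2.20, 3.29, 2.59, 2.76 and 2.35 in order of position, and the q of the peak at 20985186, the strongest, was 0.0208. That peak was 410 bp wide. The 346.4 kb nearest the lower end held no summit, the longest such stretch in any of the 10 genes. The summit at 21110734 lay 718 bp before the RefSeq transcript start shown above, which is 662.6 kb inside the span. Its fold was 2.76, with 16 fragments over a control level of 5.17, and its q was above 0.05. Cdh13 and Cdh12 are close in length, and their density intervals did not overlap, though this pair was chosen after the values were seen. Those intervals cover counting error only. The regression described below allows for more spread between genes. Its central 95% ran from 3 to 32 summits for Cdh12 and from 3 to 33 for Cdh13. Both counts, 5 and 22, lay within either range.

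The remaining type II genes had 1 to 3 summits each. Cdh8, known from thalamocortical and striatal circuits, held 3 in 393.2 kb on chromosome 8, with folds of 2.94, 2.77 and 2.59, or 0.726 per 100 kb (0.150 to 2.12). The RefSeq start of Cdh8 was 12.6 kb from the nearest of them. Cdh10, expressed in brain, held 1 summit of fold 3.11 and q 0.0390 in 197.3 kb, 20.3 kb after its listed start. Cdh9, known for specifying synapses in the hippocampus and retina, had no summit in its 128.6 kb. The peak counted for it lay 8531 bp above its upper end, with a fold of 2.05, 13 fragments and a q of 0.443. Cdh11, also known as osteoblast cadherin and present in brain, had a summit of fold 2.43 inside and another of 2.42 lying 3623 bp below its lower end. Cdh20 likewise had a summit of fold 2.42 inside and another of 2.59 lying 3132 bp above its upper end. None of the summits of Cdh8, Cdh9, Cdh11 and Cdh20 had a q of 0.05 or less.

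In order of summits per 100 kb, the members were Cdh4, Cdh13, Cdh2, Cdh18, Cdh11, Cdh20, Cdh8, Cdh9, Cdh10 and Cdh12. The Poisson intervals of every pair of neighbours in this order overlapped. By class, the 7 type II genes together had 0.814 per 100 kb (0.536 to 1.18), the type I genes 2.09 (1.17 to 3.45) and Cdh13 1.83. The 6 other type II genes counted below, at most 163.0 kb long, had 1.58 per 100 kb. The low value is therefore one of the 7 members and not of all type II genes. Genes are not replicates of a class, and the classes differ in chromosome and neighbourhood, so these class values are a description.

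Whether any member had more or fewer summits than its length gives was examined in a negative binomial regression over all 20665 autosomal protein-coding genes. Cdh4 had 11 summits against 6.98 expected, a ratio of 1.57, and Cdh13 had 22 against 14.9, a ratio of 1.47. Cdh18 and Cdh2 were close to expectation, with ratios of 1.06 and 1.02. Cdh12 had 5 against 14.6 expected, a ratio of 0.343, and Cdh10 had 1 against 3.61, a ratio of 0.277. For Cdh8, Cdh9, Cdh11 and Cdh20 the ratios were 0.484, 0.383, 0.671 and 0.496. The median ratio was 0.584 over the members, 0.921 over genes at least as long as Cdh9 and 0.681 over all genes.

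None of the 10 members passed the test, with an adjusted p of 1 for each over all genes, and 0 had an unadjusted p under 0.05. The lowest unadjusted p was 0.165, for Cdh12. Over all genes, 0 of 20665 (0%) were called in either direction, and 391 (1.89%) had an unadjusted p under 0.05. A Poisson fit without dispersion called 10 genes and no member, with a lowest adjusted p among members of 0.889, for Cdh12. The fit could call only very large departures. Cdh13 would have needed about 78 summits to pass alone, 5.22 times its expected number, and with 0 summits Cdh12 would have had an unadjusted p of 0.00204, too high for a call. When summit density in the neighbouring 500 kb on each side was added as a term, Cdh4 and Cdh13 turned to ratios of 0.747 and 0.795, and Cdh2 to 0.999.

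**Figure D2:**
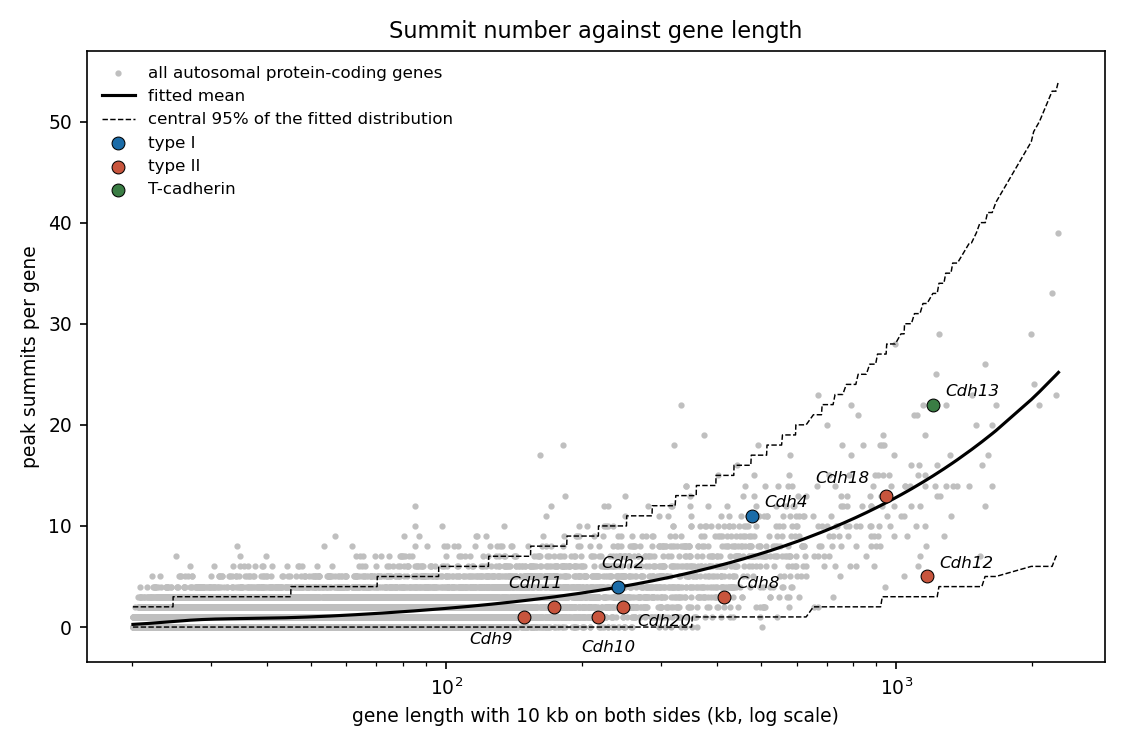
Summits per gene on the y axis against gene length with 10 kb on both sides, in kb on a log x axis, for all autosomal protein-coding genes (grey) and the 10 members (coloured by class). The solid line is the fitted mean and dashed lines enclose the central 95% of the fitted distribution; all 10 members lie within them, with Cdh13 and Cdh4 above the line and Cdh12 below it.

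The folds of the cadherin summits lay in the range usual for the list. The median was 2.59 (quartiles 2.42 and 2.94) over the 64 summits and 2.77 (quartiles 2.49 and 2.94) over the 35505 peaks on the 20 chromosomes. Folds are tied, because pileups are small whole numbers over a few control levels. The median summit held 15 fragments in both sets, with a range of 12 to 22 among the members. At the common lowest control level of 4.78 were 43 of the 64. The other summits had higher levels, up to 7.11 at a peak of Cdh13, where 16 fragments gave a fold of only 2.10. A fold at or above the list median was reached by 30 of 64, against 52.7% of the list.

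A q of 0.05 or less was found for 11 of the 64 summits, or 17.2% (95% Wilson interval 9.88 to 28.2), against 23.4% of the list. They lay in 6 of the 10 genes, 4 in Cdh18, 2 each in Cdh4 and Cdh2, and 1 each in Cdh10, Cdh12 and Cdh13. The share was 1 of 22 in Cdh13 and 10 of 42 in the other members together. Without Cdh13 the share was 23.8%. Median peak width was 214 bp for the members and 222 bp for the list, and 19 of the 64 had the minimum width of 190 bp, against 22.4% of the list. Most summits counted for each of these 10 genes, other than Cdh2 and Cdh10, therefore had a q above 0.05.

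**Figure D3:**
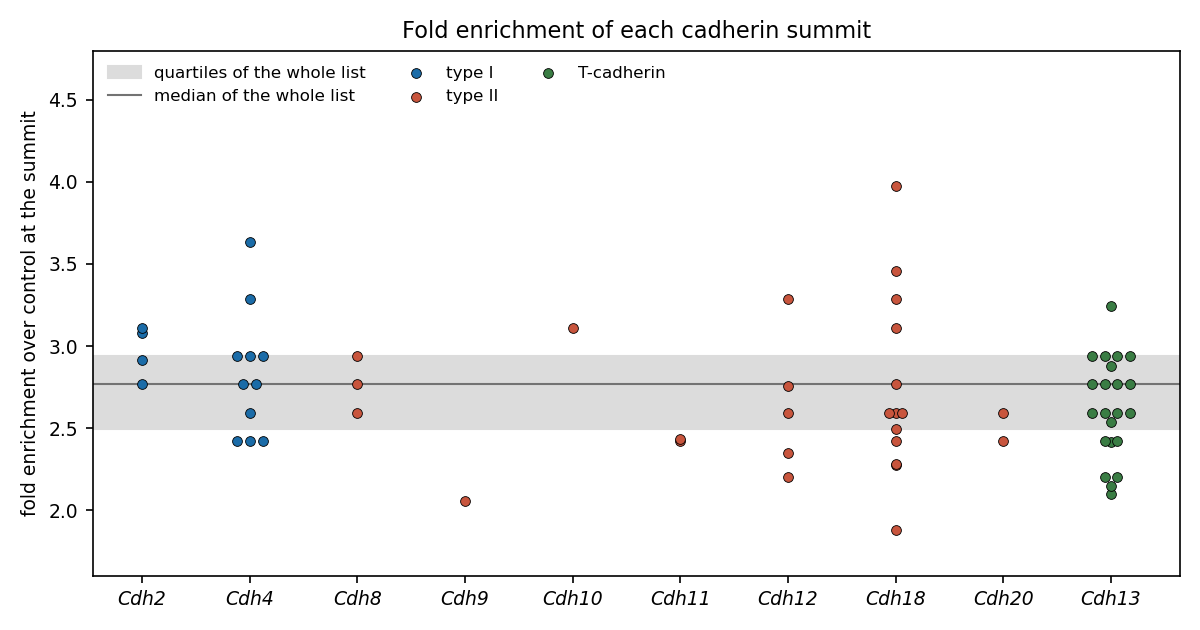
Fold enrichment over control of each of the 64 summits on the y axis, by gene, with points coloured by class. The grey band and line are the quartiles (2.49 and 2.94) and the median (2.77) of the whole list; Cdh18 reaches from 1.88 to 3.98 and the folds of Cdh13 lie between 2.10 and 3.24.

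Summits near the ends of these genes were first counted within 1 kb, a distance too short to show a shortage in 10 genes. Of the 10 members 0 had a summit within 1 kb of either end, and 8.68% of protein-coding genes had one, a share at which fewer than 1 in 10 genes would. The nearest were 1701 bp inside the lower end of Cdh18, 2153 bp inside the upper end of Cdh2 and 2241 bp below the lower end of Cdh18. Others within 5 kb of an end were at 3104 bp in Cdh2, 3132 bp at Cdh20 and 3623 bp at Cdh11. No shortage of summits near the ends was thus shown. With listed transcript starts in place of ends, 1 of 6 members, Cdh12, had a summit within 1 kb, against 5.04% of protein-coding genes in the promoter table. The same single gene was counted with a distance of 5 kb, against 19.0% of those genes.

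Inside the spans, summits were placed by their distance from the 5′ end of the span, or from the lower-coordinate end for Cdh2, Cdh4, Cdh11 and Cdh13, whose strand was not in the tables used. The listed transcript starts of Cdh12 and Cdh18 lie in the middle of their spans, so for these genes the parts do not run with distance from that start. Each span was cut into 3 equal parts. The part nearest this end held 16 of the 59 summits (27.1%, 95% Wilson interval 17.4 to 39.6), the middle part 28 (47.5%, 35.3 to 60.0) and the last part 15 (25.4%, 16.1 to 37.8). In all protein-coding genes at least as long as Cdh9, cut in the same way, these parts held 31.9%, 30.8% and 37.3% of 7882 summits. In Cdh13 the middle part held 11 of 22 summits. In the 6 members with a known strand it held 9 of 22.

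Another summit of the list lay within 5 kb of 8 of the 64 cadherin summits, or 12.5% (95% Wilson interval 6.47 to 22.8), against 17.3% of the list. These 8 formed 4 pairs, 2 in Cdh13 and 2 at Cdh18. The median distance to the nearest other summit was 23.6 kb for the members and 20.2 kb for the list. Distances were short in Cdh13 and in the type I genes, with medians of 12.6 and 13.7 kb. They were long in the type II genes, with a median of 43.2 kb.

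Each gene was set against the 500 kb on both sides of it, beyond the 10 kb flanks, so that for a single gene both values come from 1 region. Over the 10 spans there were 59 summits, or 1.17 per 100 kb, against 173 in the flanks, or 1.74 per 100 kb. The ratio was 0.672 (exact conditional 95% interval 0.491 to 0.908, counting error only). Counts and lengths were summed over genes before this ratio was taken. Long spans therefore weighed more than short ones, and regional differences were not removed from the pooled value. The density was lower in the span than in the flanks at 8 of 10 members, against 50.7% of long genes, whose pooled ratio was 0.963. The 2 pooled ratios were not computed alike. For long genes, flanks were summed gene by gene, so overlapping flanks were counted more than once. For the members, each flank base was counted once and the windows of other members were left out. Cdh4 had 2.19 per 100 kb in its span and 4.10 in its flanks, and Cdh13 had 1.86 and 2.90, against 1.57 in the flanks of long genes. Cdh12 had 0.435 in its span and 0.900 in its flanks. Cdh2 and Cdh18 had slightly more in the span, with ratios of 1.13 and 1.08. The interval of each gene taken alone included 1. With only peaks of q 0.05 or less the pooled ratio was 0.369 (0.159 to 0.761). The pooled interval included 1 when Cdh4 was left out (0.723, 0.510 to 1.01), when Cdh12 was left out (0.757, 0.546 to 1.04), or when flank bases inside protein-coding genes were left out (0.794, 0.575 to 1.09).

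**Figure D4:**
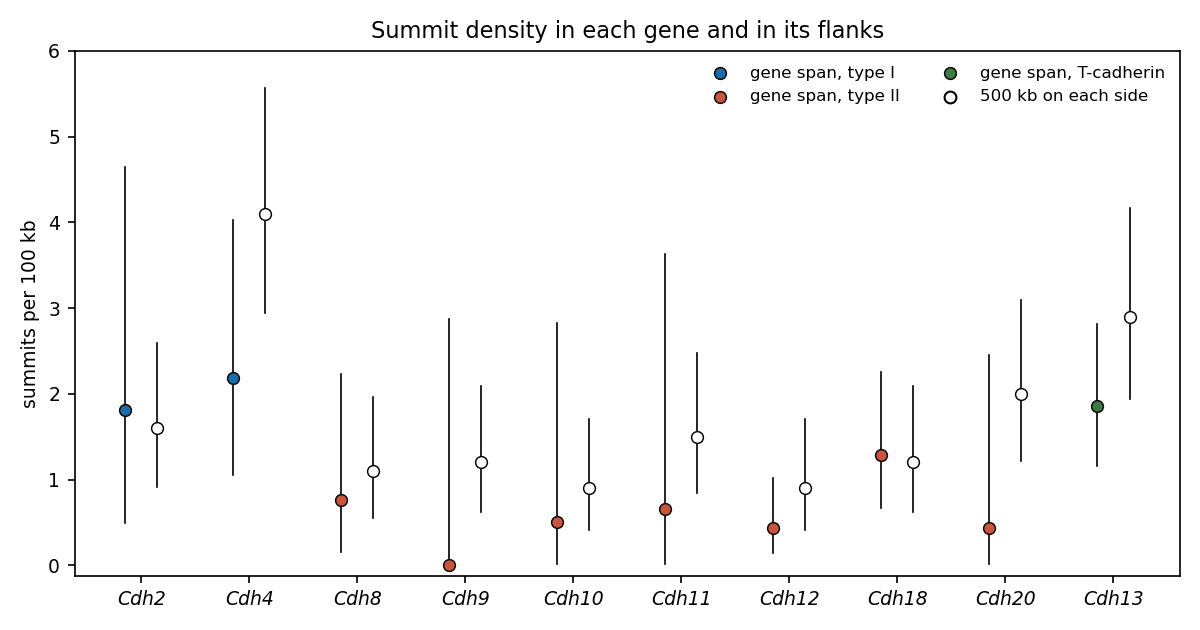
Summits per 100 kb on the y axis in the span of each gene (coloured by class, left) and in the 500 kb on each side beyond 10 kb (white, right), with exact 95% Poisson intervals as bars. The intervals of span and flanks overlap in all 10 genes, and 8 of the 10 spans lie below their flanks.

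Other genes of cadherin adhesion were counted in the same way, 29 in all, of which 25 had a summit in the span or within 10 kb. None of the 29 passed the regression over all genes, and Cdh15, with 4 summits against 0.864 expected, was the single one with an unadjusted p under 0.05 (0.0398, adjusted p 1). Cdh15 encodes M-cadherin of muscle. The other type I genes Cdh3, which encodes P-cadherin, and Cdh1, which encodes E-cadherin of epithelia, had 2 summits and 1. Of 6 further type II genes 5 had a summit, led by Cdh7 and Cdh24 with 3 each and followed by Cdh5, the endothelial cadherin, and Cdh22 with 2 each, whereas Cdh6 had none in 147.7 kb. Cdh23, a cadherin of hair-cell tip links, held 10 summits with a highest fold of 3.98. Cdh26 held 4 with a highest fold of 4.50, and Cdh17, of intestine, 1.

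Among the 10 catenin genes, the largest counts were in those that are long. Ctnna3, which encodes an α-catenin best known from heart, held 17 summits in 1573.6 kb against 18.8 expected. Ctnna2, which encodes the α-catenin of neurons, held 15 against 14.1, and Ctnnd2, which encodes δ-catenin, a neuronal member of the p120-catenin family, held 12 against 11.5. A q of 0.05 or less was found for 7 of 15 summits in Ctnna2, 5 of 17 in Ctnna3 and 4 of 12 in Ctnnd2. In the longest cadherin genes it was found for 4 of 13 in Cdh18, 1 of 22 in Cdh13 and 1 of 5 in Cdh12. The share over the list was 23.4%, and the 3 catenin genes were named for having most summits. Ctnnb1, the β-catenin gene, had 1 summit, and Arvcf none. Together the catenin genes had 1.30 summits per 100 kb, beside 1.22 over the 10 cadherin genes. Of 6 adherens junction partners, Nectin1 held most, with 4, followed by Nectin2 and Vcl, the gene of vinculin, with 2 each. Nectin4 had none.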

How the data were processed

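TOP2B complexes were mapped in 4 libraries, 2 of ChIP and 2 of input, by native TOP2B ChIP from sonicated lysates, adapter ligation, strand digestion with λ exonuclease and linear amplification, per the labels' protocols. The submitters' processing notes name FastQC, Trimmomatic, BWA, SAMtools and MACS2, with no version for any, and give mm10 and GRCm38.p6 as builds. The caller's settings, how duplicates were handled and which libraries were pooled were not given in the sources used. The deposited file is a peak list without a header. It gives, by the authors, a fold, which is the linear ratio of ChIP to control after 1 is added to each. Deposited with it are p and q as −log10, and a display score that was not used here. Intervals and summits were turned into 1-based positions.

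Pileup and control level were solved from fold and p, as MACS2 computes them, within 0.002 of −log10 p, for 35529 of 35539 peaks and all 64 members. Gene spans, transcript starts and sequences were RefSeq's for GRCm38.p6. Tests used 20 chromosomes, and the regression 19 autosomes. Summits per gene were fitted with Python 3.11.15 and statsmodels 0.14.6, by a negative binomial model with window length as offset, a spline of length with 4 degrees of freedom and 1 dispersion. Two-sided tail p-values were adjusted by Benjamini-Hochberg over all genes, with calls at 0.05. The fitting code was run on counts simulated from the fitted model itself, which cannot show whether that model suits the real counts. Intervals cover counting error only. All members were named, with the strongest, widest and end-nearest summits, and from other lists the 3 genes with most summits, other genes being named after their values were seen. Members and lists were chosen with earlier results of these data known. Transcript starts and promoter letters were added after the files were seen. Peak thresholds, windows, joined peaks, flanks, genes left out and other models were tried as alternatives.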

Additional observations from a re-analysis of the deposited data

How the results depend on the processing

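No paired analysis was possible because the deposited list pools the libraries. Of 280 values under other settings, 247 kept their side or stayed within the interval or 1.5 times of the reported value. That count includes values that could hardly change. The number of summits stayed at 64 with any overlap of the peak interval, peaks within 1 kb joined or peaks of high control level left out. Calls could come only from very large departures. No member was called under any of the 13 other fits, the lowest adjusted p being 0.889.

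Only peaks of q 0.05 or less left 11 summits, 0.210 per 100 kb, with a median fold of 3.29 and 0% with another within 5 kb; fold at or above the list median left 30, 0.573 per 100 kb, median fold 2.94, 36.7% of q 0.05 or less and 0% within 5 kb. A −log10 q of at least 5 left 0 summits and 0 per 100 kb, so folds, shares and the flank ratio could not be computed. The flank ratio lost its interval below 1 without Cdh4 (0.723), without Cdh12 (0.757) and with flank bases in protein-coding genes left out (0.794), and was 0.369 with peaks of q 0.05 or less and 0.563 with folds at or above the median. The part of the genes before their midpoint held 45.8% of summits, and 46.9% had another within 20 kb, by construction of these settings.

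Calls over all genes, 0 as reported, were 1 with peaks of q 0.05 or less, 1 with local density as a term, 10 by Poisson and 3 among genes at least as long as Cdh9. Ratios of observed to expected summits changed side for Cdh10 (1.16) and Cdh13 (0.296) with peaks of q 0.05 or less, for Cdh18 with folds at or above the median (0.778) and with the span alone (0.973), for Cdh2 (0.938) and Cdh11 (1.14) with windows of 50 kb, and for Cdh2 (0.999), Cdh4 (0.747) and Cdh13 (0.795) with local density. With a −log10 q of at least 5 the ratios of Cdh2, Cdh4, Cdh13 and Cdh18 were 0. Apart from settings whose construction shows it, the cause was not tested. Unknown depth limits every single peak.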

Other observations

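Cdh9, Cdh10, Cdh12 and Cdh18 follow each other on chromosome 15 between 16.7 and 23.5 Mb, with no other protein-coding gene in the stretches between them. The 1961.7 kb between Cdh9 and Cdh10 held 14 summits, or 0.714 per 100 kb (95% Poisson interval 0.390 to 1.20). The 1432.7 kb between Cdh10 and Cdh12 held 10, or 0.698 (0.335 to 1.28), and the 950.5 kb between Cdh12 and Cdh18 held 10, or 1.05 (0.505 to 1.93). The 4 genes with their 10 kb flanks had 0.805 per 100 kb (0.492 to 1.24), and their spans alone 0.749. The stretches ran from the end of 1 gene to the start of the next. Flank summits at 16865669 and 22546657 were therefore counted both for the genes and for the stretches. Chromosome 15 as a whole had 1.59 per 100 kb between its outermost summits. The intervals of the genes and of all 3 stretches overlapped. Those of the genes and of the first and second stretches lay below the chromosome's value, and that of the third stretch included it. These intervals cover counting error only. Other stretches without protein-coding genes were not counted, so whether these densities are low for such stretches was not tested.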
